A study of Mus musculus with 16 samples.

Results

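The lungs of 4 female A/J mice given NNK were compared with the lungs of 4 Untreated mice, which makes 8 of the 16 arrays of the study, chosen by their group labels. A/J is an inbred strain prone to lung tumours. NNK is a nitrosamine specific to tobacco, injected once into the peritoneum at 10 uM in 0.2 mL of saline, and the lungs were taken 13 days later. The basal diet of all groups, Untreated and NNK alike, was AIN-76 with 0.35 ppm selenium. The remaining arrays hold SECY mice, fed 15 ppm selenocystine for 10 days, and NNK+SECY mice, whose selenocystine started 3 days after the injection, 4 of each. Each array is 1 mouse, mice of 1 group are biological replicates per the labels, and every group has n = 4. Lung RNA was labelled with Cy5, and a reference of equal parts of the RNA of the 4 Untreated mice was labelled with Cy3 on every array, with no dyes swapped. The question was which lung transcripts differed 13 days after NNK, and at which of them the reference signal held still.

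NNK needs activation. Cytochrome P450 enzymes, in the mouse lung above all those of the Cyp2a family, hydroxylate it to short-lived products that methylate and pyridyloxobutylate DNA, while carbonyl reductases turn it into an alcohol that can be conjugated. Methylated guanine is repaired by the methyltransferase Mgmt, and lesions that escape repair in A/J lung give mutations and adenomas. DNA damage also stabilises the transcription factor p53, whose targets halt the cell cycle, repair DNA or start cell death.

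The arrays fall on 8 slides. Slides 1 to 4 each hold 1 Untreated and 1 NNK array, and slides 5 to 8 each hold 1 SECY and 1 NNK+SECY array. All NNK and NNK+SECY arrays were scanned on one day and all Untreated and SECY arrays on another. A difference between scan days and an effect of NNK therefore cannot be told apart. The Cy3 signal shows where the reference differed between the 2 sets of arrays, because the same RNA was on both. A difference between scan days confined to Cy5 would not show in it. Median raw spot signals of the 8 compared arrays ran from 71.2 to 94.2 in Cy5 and from 67.5 to 86.0 in Cy3, and 66.3% to 72.6% of spots were well above background in Cy5. The scanner software marked 2 to 17 spots as outliers on each Untreated array and 61 to 139 on each NNK array. The surfactant gene Sftpc and the club cell gene Scgb1a1 were saturated in Cy5 on all 8 arrays, so the tissue showed its defining transcripts, and they get no fold change here. The 4 arrays in a group limit the precision.

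Of 18936 genes with a test, 40 passed (0.211%), 38 of them higher in NNK (0.201%) and 2 lower (0.0106%). The test was limma on log2(Cy5/Cy3) with the slide as a block, over all 16 arrays, with Benjamini-Hochberg adjustment over all genes at 0.05. Only 6 of the 40 stood where the Cy3 means of the NNK and Untreated arrays lay within 0.5 of each other on the log2 scale, which is called a steady reference below. A steady reference held at 18628 of the genes tested, so that the 6 are 0.0322% of them. They were Upk3a, Psrc1, Cdc25b and Tspan31, higher after NNK, and Dnaja1 and B430320C24Rik, lower after NNK. The other 34 stood at genes where the reference itself was brighter on the NNK arrays. These 34 count in the ranking behind the adjusted p-values, which lowers those of the 6. The unadjusted limma p-values of the 6 ran from 1.9e-05 for Upk3a to 8.2e-05 for B430320C24Rik. Ranked among the 18628 steady genes alone, these would leave none of the 6 under 0.05 after the same adjustment. The 6 calls thus rest on a ranking shared with the 34. At an unadjusted p under 0.05, 1097 of all genes passed (5.79%), and 906 of the steady ones (4.86%), 544 higher (2.92%) and 362 lower (1.94%).

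**Figure D1:**
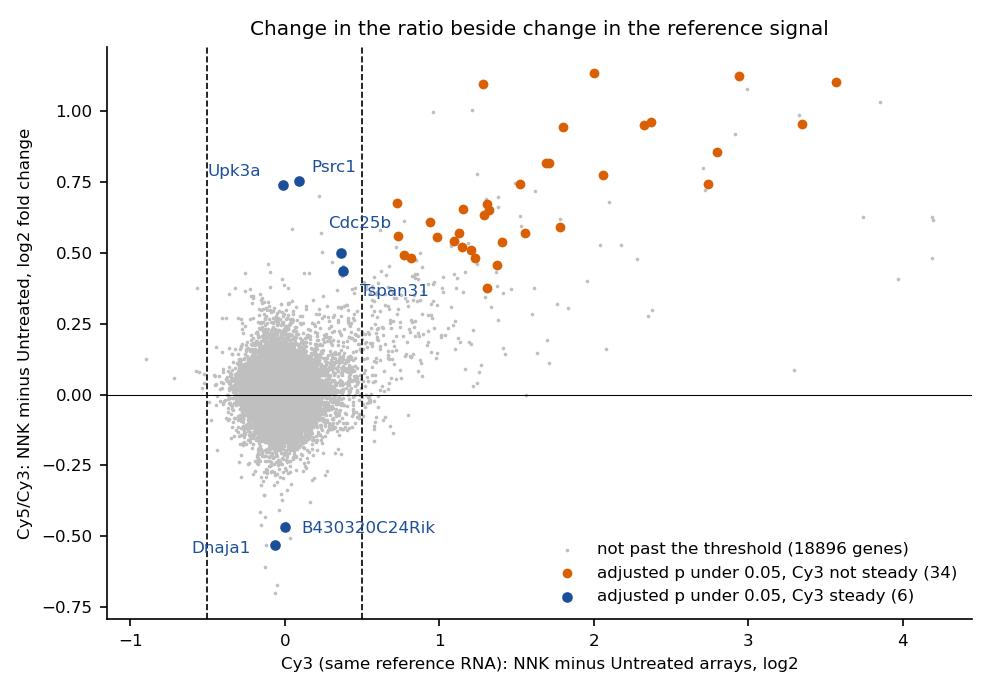
Each point is 1 of 18936 genes, with the Cy3 difference between NNK and Untreated arrays (same reference RNA, log2) on the x axis and the log2 fold change of the Cy5/Cy3 ratio on the y axis. Orange points are the 34 called genes outside the dashed limits at 0.5 either side of 0, all of them to the right and above 0, and blue points are the 6 called genes between the limits.

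Upk3a encodes a uroplakin, a membrane protein of bladder lining that in mouse airway marks a small set of club-like cells. Its log2(Cy5/Cy3) was -0.01, 0.09, -0.08 and 0.10 in Untreated mice 1 to 4 and 1.06, 0.57, 0.75 and 0.68 in NNK mice 1 to 4. Every NNK array lay above every Untreated array. Its log2 fold change was 0.74 ± 0.10 (SE, n = 4 per group, limma adjusted p = 0.0192), and the within-slide differences ran from 0.48 on slide 2 to 1.07 on slide 1. The Cy3 difference was -0.01, with Cy3 between 6.26 and 6.38 on all 8 arrays. Cy5 went from 6.24 to 6.44 in Untreated up to 6.83 to 7.42 in NNK. Both dyes were dim here, since the offset added in background correction alone gives 5.64, and such an offset damps changes in either dye. The mean log2 signal of Upk3a was 6.59, where the median of all genes tested was 7.59. On slides 5 to 8, with other mice on other arrays, the same contrast gave 0.72 ± 0.10 (unadjusted p = 2.5e-05 and adjusted p = 0.235 in limma). Upk3a passed in 12 of 18 alternative fits, whose log2 fold changes ran from 0.63 to 1.73. Its limma adjusted p was 0.0515 to 0.184 when any 1 slide was left out.

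The stretch just before the Upk3a start is shown because this gene had the smallest adjusted p among those with a steady reference. Capitals mark a match to the p53 half-site, a degenerate motif of the p53 response element searched on both strands. The sequence is RefSeq's, build GRCm38.p6, plus strand, chr15:85016991-85017140, and ends at the base before the start:
Upk3a: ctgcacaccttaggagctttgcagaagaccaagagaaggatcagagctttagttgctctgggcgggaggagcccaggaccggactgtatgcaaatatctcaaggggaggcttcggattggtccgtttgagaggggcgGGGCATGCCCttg
The match begins 13 bases before the start. Of 32851 promoter windows of 300 bases, each reaching from well before a start to just after it, 8.36% hold such a match. A match is a description of letters and not a measured site.

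Krt15, a keratin of airway basal cells, had a pattern like that of Upk3a without passing. Its ratios were -0.07, 0.24, 0.09 and 0.20 in Untreated mice 1 to 4 and 0.96, 0.44, 0.67 and 0.72 in NNK mice 1 to 4, with no overlap. That put the log2 fold change at 0.58 ± 0.13 (adjusted p = 0.180 in limma), the Cy3 difference was 0.05, and slides 5 to 8 gave 0.63 ± 0.13. Of the 14 tested basal cell and uroplakin markers, 1 rose, namely Upk3a, 0 fell and 13 did not pass. Above 0 were 13 of the 14 with a median of 0.11, where 53.2% of all genes tested were above 0 with a median of 0.0054. On slides 5 to 8 the list was not shifted as a whole, with 5 of 14 above 0 and a median of -0.02. The basal keratins Krt5 and Krt17 stood at 0.05 ± 0.07 and 0.11 ± 0.05, and the uroplakin Upk1b at 0.13 ± 0.05. Another uroplakin, Upk1a, had 0.17 ± 0.06 beside a Cy3 difference of 0.62. The mean Cy5 signal of the 14 markers ran from 6.88 to 7.06 on Untreated arrays and from 7.15 to 7.21 on NNK arrays (log2), with Cy5 differences of 0.79 for Upk1a, 0.73 for Upk3a and 0.63 for Krt15. In whole lung, more cells of a type and more RNA per cell cannot be told apart, which holds for every gene below.

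Psrc1, a microtubule-binding protein of the spindle that p53 induces, was the one p53 target that passed. Its ratios were 0.17, -0.16, -0.08 and -0.07 in Untreated mice 1 to 4 and 1.06, 0.69, 0.60 and 0.53 in NNK mice 1 to 4. No NNK value reached down to an Untreated one, and all 4 slides gave a difference between 0.61 and 0.89. Psrc1 had a log2 fold change of 0.76 ± 0.11 (SE, n = 4 per group, limma adjusted p = 0.0349) with a Cy3 difference of 0.09, and on slides 5 to 8 it was 0.61 ± 0.11 (unadjusted p = 0.0003). The SECY mice already stood at 0.64 to 1.29 and the NNK+SECY mice at 1.26 to 1.59, so that the ratio was high in both fed groups. Other probes of Psrc1 gave 0.34, and 0.11 at a probe whose Cy3 difference was 0.45. Psrc1 was also dim, at a mean log2 signal of 6.92. It passed in 10 of 18 alternative fits, whose log2 fold changes ran from 0.40 to 1.52. Leaving out any 1 slide ended the call (limma adjusted p 0.114 to 0.269).

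Cdc25b, a phosphatase that activates cyclin-dependent kinases at entry into mitosis, had ratios of -0.18, 0.20, 0.01 and 0.20 in Untreated mice 1 to 4 and 0.27, 0.62, 0.67 and 0.66 in NNK mice 1 to 4. The NNK value of mouse 1 stood well below the other NNK values and only just above the highest Untreated one. The log2 fold change was 0.50 ± 0.07 (limma adjusted p = 0.0201, n = 4 per group). Tspan31, a tetraspanin, had ratios of -0.16, -0.18, -0.10 and -0.11 in Untreated and 0.01, 0.42, 0.34 and 0.42 in NNK mice 1 to 4. Again mouse 1 was the low one in its group, without overlap, and the log2 fold change was 0.43 ± 0.07 (adjusted p = 0.0421). Both genes lay near the limit on the reference, with Cy3 differences of 0.36 and 0.38. Another probe of Cdc25b, also well above background and with a Cy3 difference of -0.02, gave a ratio difference of 0.01. On slides 5 to 8 the contrast was 0.18 ± 0.07 for Cdc25b and 0.17 ± 0.07 for Tspan31. Only 4 of the 6 called genes, Upk3a, Psrc1, Dnaja1 and B430320C24Rik, had a Cy3 difference within 0.25. The fit on Cy3 alone, with the same RNA on all arrays, also called Cdc25b and Tspan31 higher on NNK arrays (limma adjusted p = 0.00579 and 0.0188), and it did not call the other 4 (adjusted p 0.296 to 0.996). Cdc25b passed in 9 of 18 alternative fits and Tspan31 in 10.

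**Figure D2:**
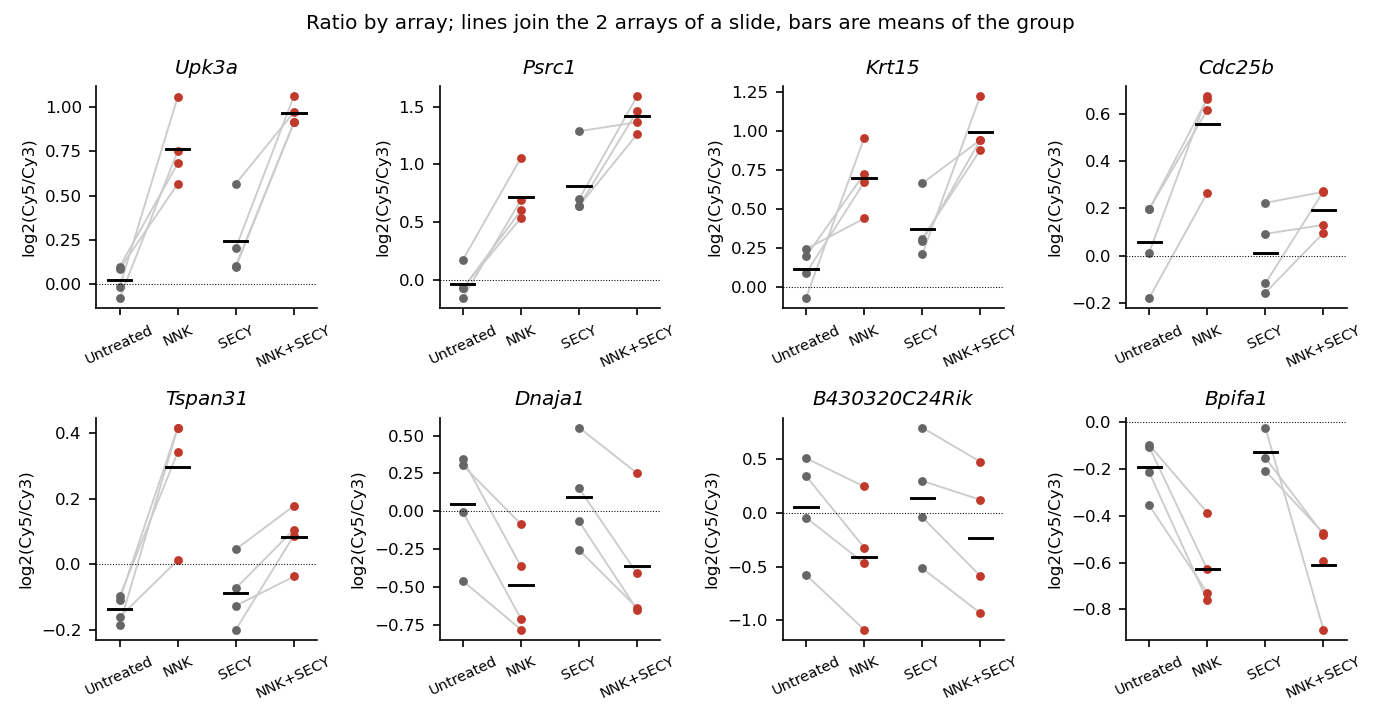
Log2(Cy5/Cy3) of 8 genes by array, in each of the 4 groups of mice, with a grey line joining the arrays of a slide and a black bar at the mean of each group. Upk3a, Psrc1, Krt15 and Bpifa1 separate NNK from Untreated without overlap, and for Dnaja1 and B430320C24Rik every line falls although the groups overlap.

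Dnaja1, a co-chaperone that feeds proteins to HSP70, was lower after NNK. Its ratios were -0.46, 0.34, 0.30 and 0.00 in Untreated mice 1 to 4 and -0.78, -0.36, -0.08 and -0.71 in NNK mice 1 to 4, so the groups overlapped while each NNK mouse lay below the Untreated mouse of its slide, by 0.32 to 0.71. The log2 fold change was -0.53 ± 0.08 (limma adjusted p = 0.0324, n = 4 per group), the Cy3 difference was -0.06, and slides 5 to 8 gave -0.46 ± 0.08. Other probes of Dnaja1 gave -0.23 and -0.35. B430320C24Rik, the name the array gives a cDNA clone, was likewise lowest in mouse 1 and highest in mice 2 and 3 of each group, with -0.58, 0.34, 0.51 and -0.04 in Untreated and -1.09, -0.32, 0.25 and -0.47 in NNK mice 1 to 4. Here too the groups overlapped and all 4 slides fell. For this clone the log2 fold change was -0.47 ± 0.07 (adjusted p = 0.0421), with a Cy3 difference of 0.00 and -0.36 ± 0.07 on slides 5 to 8. Without the slide as a block neither passed, with an adjusted p of 0.879 for Dnaja1 and 1.00 for B430320C24Rik. Dnaja1 passed in 9 of 18 alternative fits and B430320C24Rik in 5, the latter missing also without background correction (adjusted p = 0.0509) and under median centring (adjusted p = 0.0572), where the block was kept.

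Heat shock chaperones fold damaged proteins and are switched on together by the factor HSF1, which binds repeats of a short element. Of the 19 tested, 0 rose, 1 fell, namely Dnaja1, and 18 did not pass, where 0.0106% of all genes fell. Below 0 were 18 of the 19, with a median of -0.11, against 8864 of all 18936 genes, and on slides 5 to 8 the count above 0 was 0 of 19 with a median of -0.16. By slide, 7 of 19 were above 0 on slide 1 and 2 of 19, 3 of 18 and 2 of 18 on slides 2 to 4. The cytosolic HSP90 gene Hsp90aa1 had -0.25 ± 0.09, the HSP70 partners Dnajb1 and Dnajb4 -0.35 ± 0.14 and -0.21 ± 0.09, and Hsph1, which reloads HSP70, -0.42 ± 0.19. None of these 4 passed (adjusted p 0.618 to 0.861).

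The widest spread in the list was that of Hspa1a, the inducible HSP70. Its ratios were -2.00, 0.52, 0.49 and -0.34 in Untreated mice 1 to 4 and -1.56, -0.80, -0.40 and -1.27 in NNK mice 1 to 4. Untreated mouse 1 had the lowest value of all 8, on a slide where NNK mouse 1 was the lowest of its group. At -0.67 ± 0.35 its log2 fold change did not pass (adjusted p = 0.914), and 3 other probes gave -0.67, -0.48 and -0.14. Hspa1a has a near-identical copy, Hspa1b, with which the probes may share signal. Mean Cy5 signal of 16 list members with a value on all arrays ran from 9.90 to 10.5 in Untreated and from 9.83 to 10.3 in NNK (log2), so the groups overlapped.

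Stretches before 3 chaperone starts are shown because members of this list were low together. Capitals mark GAANNTTC or TTCNNGAA, a pair of facing heat shock elements, searched on both strands (each motif is its own reverse complement, and overlapping matches are joined). They are RefSeq's, build GRCm38.p6, plus strand, with Dnaja1 at chr4:40722278-40722407 before the first of its 3 listed starts, Hspe1 at chr1:55088018-55088117 and Hspb1 at chr5:135887769-135887868:
Dnaja1: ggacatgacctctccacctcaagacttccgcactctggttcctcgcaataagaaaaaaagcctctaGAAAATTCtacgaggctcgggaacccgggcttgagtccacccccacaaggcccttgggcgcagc
Hspe1: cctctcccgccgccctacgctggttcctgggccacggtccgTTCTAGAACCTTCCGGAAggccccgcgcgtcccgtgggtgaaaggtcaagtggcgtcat
Hspb1: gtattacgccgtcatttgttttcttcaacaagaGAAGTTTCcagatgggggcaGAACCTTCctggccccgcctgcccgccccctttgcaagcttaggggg
Dnaja1 holds 1 match, 124 bases before that start. Hspe1, which shares this stretch with its neighbour Hspd1, holds 3 overlapping ones from 89 bases before its start, and Hspb1 holds 2. RefSeq promoters matched for 13 of the 19 tested members, and 9 of these held at least 1 of the motifs in a window, against 17.0% of all 27025 genes in the table. Hspe1 and Hspd1 had log2 fold changes of -0.10 ± 0.06 and -0.11 ± 0.06. Dnajb1, at -0.35, had no match in its 2 windows.

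**Figure D3:**
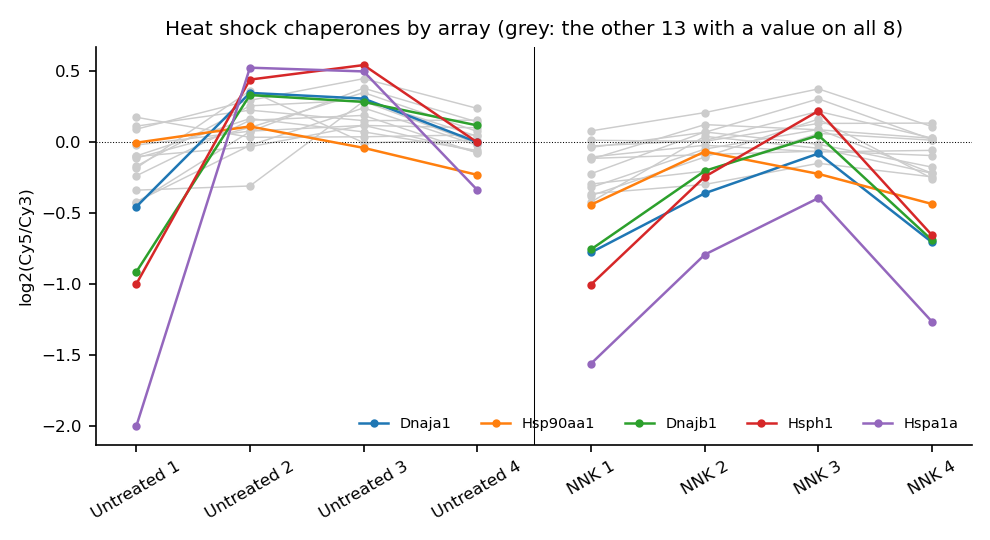
Log2(Cy5/Cy3) of the 18 heat shock chaperones with a value on all 8 arrays, with 5 genes in colour and the other 13 in grey, and lines drawn within a group only to tie the values of a gene together. Untreated 1 and NNK 1 are low in each group for Hspa1a, Hsph1 and Dnajb1, and Hspa1a spans -2.00 to 0.52 among the Untreated arrays.

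Among the p53 targets as a list, 35 were tested, of which 1 rose (Psrc1), 0 fell and 34 did not pass, where 0.201% of all genes rose. Above 0 were 29 of 35 with a median of 0.070, where 53.2% of all genes were. Under median centring 20 of 35 were above 0 with a median of 0.038. There, 7067 of all 18936 genes were above 0, with a median of -0.026. On all 4 slides 13 were higher and 3 lower, where 8.93% and 6.77% of genes with complete values were. On slides 5 to 8 there were 23 above 0, with a median of 0.052. The mean Cy5 signal of 33 members ran from 8.08 to 8.18 on Untreated arrays and from 8.18 to 8.29 on NNK arrays (log2). Of single members, Trp53 and Psrc1 had Cy5 differences of 0.98 and 0.85, and in the Cy5 fit 22 of 35 were above 0 with a median of 0.042. Zmat3, an RNA-binding target of p53, had ratios of -0.14, -0.04, 0.14 and 0.12 in Untreated and 0.22, 0.35, 0.45 and 0.21 in NNK mice 1 to 4. They did not overlap, and the log2 fold change was 0.28 ± 0.08 (limma adjusted p = 0.357). The cyclin Ccng1 had 0.26 ± 0.09 and 0.27 ± 0.09 on slides 5 to 8. Mdm2, the ligase that degrades p53, had 0.19 ± 0.07, the mTOR inhibitor Ddit4l 0.22 ± 0.07 and the AKT repressor Phlda3 0.21 ± 0.09, none passing. The cell cycle inhibitor Cdkn1a stood at 0.09 ± 0.15 and the stress cytokine Gdf15 at 0.12 ± 0.06. Trp53, which encodes p53 itself, had 0.31 ± 0.06 (adjusted p = 0.107) beside a Cy3 difference of 0.67, and another probe of Trp53 gave -0.10.

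Short stretches before Ccng1 and Mdm2 are shown because both are known targets and stood above 0 here. Capitals mark the p53 half-site match, and both are RefSeq's, build GRCm38.p6, minus strand, with Ccng1 at chr11:40755427-40755506 and Mdm2 at chr10:117710899-117710978:
Ccng1: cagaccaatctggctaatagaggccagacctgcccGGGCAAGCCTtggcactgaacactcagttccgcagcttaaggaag
Mdm2: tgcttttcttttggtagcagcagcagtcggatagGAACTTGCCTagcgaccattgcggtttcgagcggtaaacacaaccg
The matches begin 185 and 186 bases before the starts. Of 27 tested p53 targets with a RefSeq promoter, 13 held a match, against 9.55% of all its genes. The 2 windows of Psrc1 held none, which says only that these letters are not in them.

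Besides the called genes, several with a steady reference separated the groups on all 4 slides without overlap and did not pass. In all, 402 of 18490 steady genes with complete values had every NNK array above every Untreated array (2.17%) and 255 every NNK array below (1.38%). Over all genes these shares were 2.56% and 1.37%. Bpifa1, a secreted airway defence protein, had ratios of -0.11, -0.22, -0.10 and -0.36 in Untreated and -0.63, -0.76, -0.39 and -0.73 in NNK mice 1 to 4. The highest NNK value lay just under the lowest Untreated one, and the log2 fold change was -0.43 ± 0.09 (limma adjusted p = 0.189), with -0.49 ± 0.11 on slides 5 to 8. Wfdc3, a WAP-domain protein of the protease inhibitor type, had 0.46 ± 0.10 (adjusted p = 0.146), while Calml3, an epithelial calmodulin-like protein, had 0.38 ± 0.13. On slides 5 to 8 these gave 0.25 ± 0.10 and 0.39 ± 0.13. Cacybp, which binds the calcium sensor S100A6 among others, had -0.32 ± 0.08 and -0.22 ± 0.08.

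For most other genes of this kind the contrast on slides 5 to 8 was closer to 0. The transcription factor Mitf went from -0.28 ± 0.06 on slides 1 to 4 to -0.02 ± 0.06, and another probe of Mitf gave 0.12. Slc5a8, a transporter of short organic acids, had -0.26 ± 0.05 (adjusted p = 0.0964) and then -0.07 ± 0.05. Ctsc, a lysosomal protease, had -0.25 ± 0.06 and -0.05 ± 0.06, the scavenging chemokine receptor Ackr3 -0.27 ± 0.08 and -0.04 ± 0.08, and the TGF-beta-induced factor Klf10 -0.27 ± 0.09 and -0.07 ± 0.09. The macrophage mannose receptor Mrc1 and the microtubule regulator Rmdn2 had -0.27 ± 0.11 and -0.32 ± 0.11, and both gave -0.03 on slides 5 to 8. All these genes were picked by their values on slides 1 to 4. Mitf and Klf10 were above 0 on slide 6, at 0.15 and 0.18, and below 0 on slide 7. For 4 others slide 7 went the other way, with Mrc1 at 0.36, Rmdn2 at 0.47, Ctsc at 0.11 and Ackr3 at 0.24. On slides 5, 6 and 8 these 4 genes were below 0, Mrc1 at -0.23, -0.07 and -0.19 and Rmdn2 at -0.05, -0.26 and -0.29. Meig1, known from sperm tails, had 0.33 ± 0.10 and 0.23 ± 0.10 on slides 5 to 8. The palmitoyltransferase Zdhhc3 had 0.42 ± 0.09 beside a Cy3 difference of 0.36, and another probe with a Cy3 difference of -0.11 gave 0.05. Fgf14, of the fibroblast growth factor family, owed its 0.42 ± 0.13 largely to NNK mouse 3, at 1.09 where the other NNK mice were at 0.12 to 0.16.

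The 34 called genes without a steady reference had log2 fold changes of 0.38 to 1.13 with a median of 0.65, the highest at the cDNA clone D130061D10Rik, which had a value on only 2 NNK arrays (1.13 ± 0.11, limma adjusted p = 0.00904, Cy3 difference 2.00). The rule that sets them apart used Cy3, so their Cy3 values are a description: differences of 0.73 to 3.57 with a median of 1.35, all upward, beside Cy5 differences of 1.26 to 4.22. In Mcm8, a helicase of DNA replication and repair, Cy3 was 6.30, 7.04, 7.59 and 8.60 on Untreated arrays 1 to 4 and 7.48, 11.1, 11.3 and 11.4 on NNK arrays 1 to 4. Cy5 was 6.26, 7.34, 7.64 and 8.87, then 8.59, 12.6, 12.6 and 12.6. Both dyes were thus brightest on NNK arrays 2 to 4. They also climbed across Untreated arrays 1 to 4, and Untreated array 4 was brighter than NNK array 1 in both. Over the 34 genes the median Cy3 likewise climbed across the Untreated arrays, from 7.81 on array 1 to 8.89 on array 4. On NNK arrays it was 8.71 on array 1 and 9.97 to 10.12 on arrays 2 to 4. For Mcm8 the log2 fold change of the ratio was 1.13 ± 0.12 (limma adjusted p = 0.00845). Another probe of Mcm8, with a Cy3 difference of -0.06, gave 0.04.

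Rfc4, a subunit of the clamp loader of replication, had 0.95 ± 0.15 with a Cy3 difference of 2.33, and the survival and mitosis factor Birc5 had 1.1 ± 0.10 with 1.29, its NNK array 1 without a value. The others named are the small nucleolar RNA Snord33 (1.1 ± 0.09), the CREB coactivator Crtc3 (0.96 ± 0.11), the immune adaptor Clnk (0.95 ± 0.10), Tsacc, a co-chaperone of a testis kinase (0.95 ± 0.10), the homeobox factor Gsx1 (0.86 ± 0.14) and the kinase Pak6 (0.82 ± 0.09). Their Cy3 differences ran from 1.69 to 3.57. Second probes of Clnk and Tsacc, with Cy3 differences of 0.02 and -0.05, gave -0.03 and 0.02. Over the 34 genes the contrast on slides 5 to 8 was 0.04 to 0.62, with a median of 0.18. Outlier marks left 24 of the 34 with a value on all 4 slides, and NNK array 1 lacked a value at 7 of them.

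**Figure D4:**
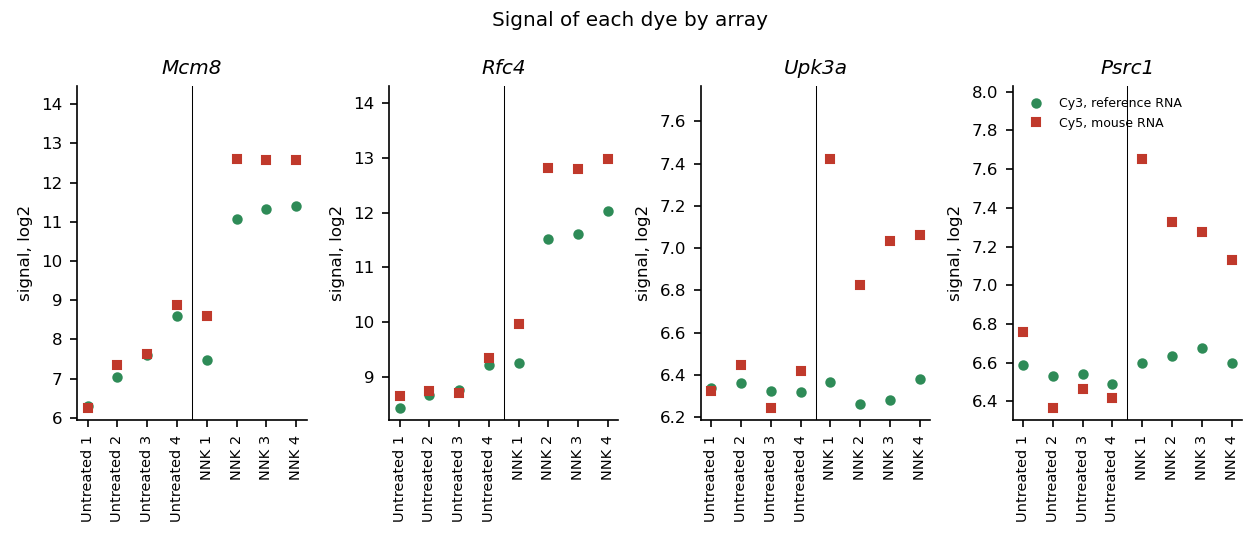
Signal of Cy3 (reference RNA, green circles) and Cy5 (mouse RNA, red squares) on a log2 scale for 4 genes on the 8 arrays, each panel with its own axis. In Mcm8 and Rfc4 both dyes rise on NNK arrays 2 to 4, in Mcm8 after a climb across the Untreated arrays. In Upk3a and Psrc1 only Cy5 rises. Cy3 of Upk3a lies between 6.26 and 6.38 throughout, where the offset of background correction alone gives 5.64.

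The same fit on Cy3 alone gives the scale of such changes. With the same RNA on both sides, 1945 of 18936 genes passed (10.3%), 1002 higher (5.29%) and 943 lower (4.98%) on NNK arrays. Cy5 alone gave 639 genes (3.37%). Most of these differences were small, since the Cy3 means of the groups were 0.5 or more apart at 309 of 18942 genes (1.63%), with NNK arrays brighter at 301 of them. The limit falls inside a continuous range. Just inside it lay Olfr397, Nudt7 and Barhl1 with Cy3 differences of 0.4958, 0.4981 and 0.4995, and just outside it CA495516, AK042814 and AK038653 with 0.5015, 0.5021 and 0.504. What raised both dyes at these spots was not tested.

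Enzymes that activate NNK did not pass. Cyp2a5 had ratios of -1.04, 0.16, 0.23 and 0.18 in Untreated and -1.19, -1.26, 0.07 and -0.22 in NNK mice 1 to 4. Both groups held low mice, namely Untreated 1, NNK 1 and NNK 2, and they overlapped. The log2 fold change was -0.53 ± 0.22 (limma adjusted p = 0.828), with -0.30 ± 0.22 on slides 5 to 8. Cyp2a4, its close relative, had the same low mice and -0.61 ± 0.21, and these near-identical genes may share signal. Cyp2f2, the abundant P450 of club cells, had -0.15 ± 0.06, Cyp2s1 0.27 ± 0.12 and Cyp2e1 0.11 ± 0.33. Over the 14 tested genes of the P450 system 0 rose, 0 fell and 5 were above 0, with a median of -0.03. None of 13 genes of carbonyl reduction and conjugation passed, and their median of 0.01 turned below 0 under 7 of 18 alternatives, median centring among them. Under median centring it was -0.046, where the median of all genes was -0.026.

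In adduct and excision repair 30 genes were tested, 0 rose and 0 fell, and the median was 0.04 (it turned below 0 under median centring and for Cy5 alone). The median of all genes turned below 0 under the same 2 settings. Under median centring it was -0.026, beside -0.009 for this list. Mgmt stood at 0.07 ± 0.06, the glycosylase Mpg at 0.10 ± 0.06, and the oxidised guanine glycosylase Ogg1 at 0.14 ± 0.05. A second Ogg1 probe gave 0.15, and slides 5 to 8 gave 0.14 ± 0.05, with an adjusted p = 0.596 in limma for the NNK contrast. Of 38 NRF2 targets and glutathione enzymes, 0 rose and 0 fell, 19 lay on each side of 0 and Nqo1, a quinone reductase, was at 0.11 ± 0.08.

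Replication and proliferation genes numbered 37 tested, of which 3 rose and 0 fell, where 0.201% of all genes rose. Those 3 were Birc5, Mcm8 and Rfc4, and none of them had a steady reference. The list median was 0.062, and it was -0.0045 without slide 2, where 33 of 37 members were above 0 against 8 of 36 on slide 1. Above 0 on slides 5 to 8 were 13 of 37, with a median of -0.03. Top2a, a topoisomerase of dividing cells, had 0.11 ± 0.06.

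Among markers of lung cell types, those of ciliated cells stood highest after NNK, with no member passing. All 23 tested were above 0, with a median of 0.146 and a range of 0.005 to 0.27, where 53.2% of all genes were above 0. On all 4 slides 8 were higher, where 8.93% of genes with complete values were. On slides 5 to 8 the count above 0 was 20 of 23 with a median of 0.13. Cfap52, a protein of motile cilia, had ratios of -0.05, -0.01, -0.02 and 0.12 in Untreated and 0.30, 0.27, 0.21 and 0.16 in NNK mice 1 to 4, with no overlap and a log2 fold change of 0.23 ± 0.06 (limma adjusted p = 0.317). The radial spoke protein Lrrc23 had 0.19 ± 0.05, the dynein light chain Dynlrb2 0.20 ± 0.06, the tektin Tekt1 0.22 ± 0.08, and Foxj1, the master regulator of motile cilia, 0.19 ± 0.13. Slide 2 showed the list least, with 12 of 23 above 0. Median centring in place of loess left 20 of 23 above 0, where 7067 of all 18936 genes were. The mean Cy5 signal of 22 markers ran from 8.39 to 8.55 in Untreated and from 8.49 to 8.67 in NNK (log2), overlapping.

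Over all genes tested, 53.2% were above 0 with a median of 0.0054. Of 14 club cell markers 0 passed and 11 were above 0 with a median of 0.042, a count that includes the saturated Scgb1a1. Under median centring the club cell median was -0.049, where that of all genes was -0.026. Slides 5 to 8 had 5 of 14 above 0 with a median of -0.02. Among single markers were the dehydrogenase Aldh1a7 at 0.21 ± 0.08 and the GABA receptor subunit Gabrp at -0.19 ± 0.07. Alveolar type 1 markers were mostly below 0, at 11 of 14 with a median of -0.08, and none passed. On slides 5 to 8, 6 of these 14 were above 0, with a median of -0.04. Alveolar macrophage markers were below 0 at 14 of 19 with a median of -0.09, none passing, among them the scavenger receptor Marco at -0.27 ± 0.11, which had 0.16 ± 0.11 on slides 5 to 8. As a list the macrophage markers had 9 of 19 above 0 on slides 5 to 8, with a median of -0.01. T and NK cell markers were above 0 at 20 of 24 with a median of 0.084, and at 19 of 24 on slides 5 to 8. Of these the T cell receptor chain Cd3e had 0.44 ± 0.08 (limma adjusted p = 0.0844) with a Cy3 difference of 0.63 and 0.03 from another probe, and the kinase Lck had 0.21 ± 0.06 with a Cy3 difference of -0.01. Adipose markers, which lung samples carry from attached fat, were below 0 at 12 of 13, none passing, though 6 of 13 were above 0 on slide 1. Slides 5 to 8 were split for this list. Above 0 were 11 of 13 on slide 5 and 10 of 12 on slide 6, against 0 of 12 on slide 7 and 3 of 13 on slide 8. Ucp1, of brown fat, had ratios of -0.74, -0.15, 0.47 and -0.02 in Untreated and -1.12, -0.67, -0.33 and -1.12 in NNK mice 1 to 4. The groups overlapped, and its log2 fold change of -0.70 ± 0.16 (adjusted p = 0.195) was the lowest of all genes tested.

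**Figure D5:**
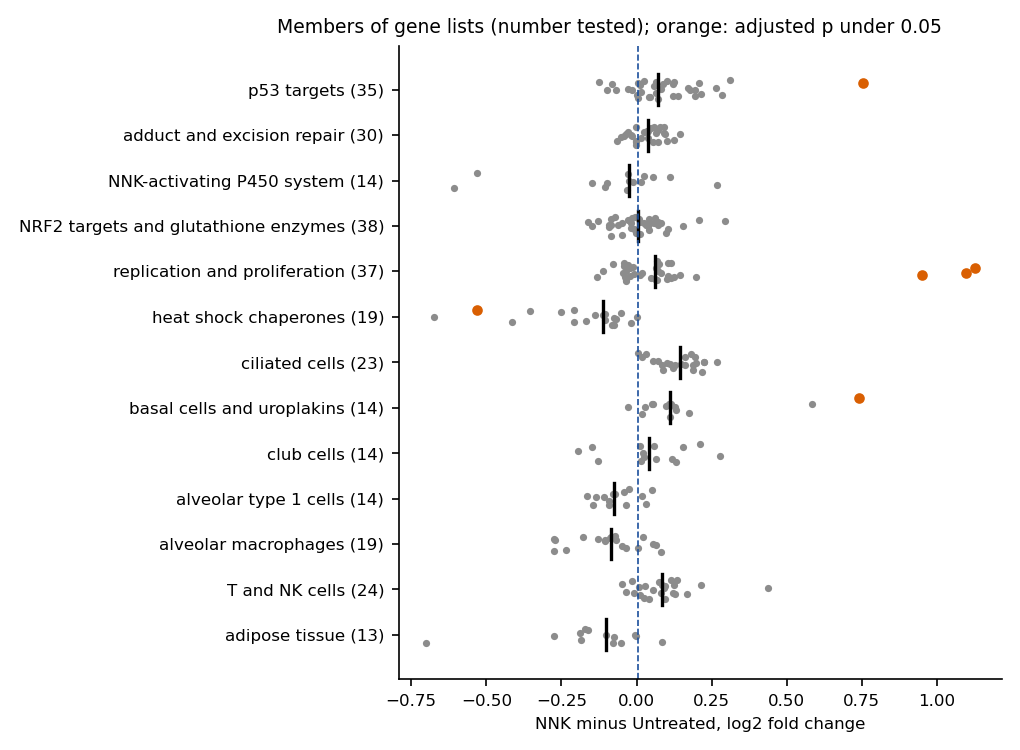
Log2 fold change of NNK minus Untreated for each tested member of 13 gene lists, with a black bar at the list median and a dashed line at the median of all genes tested (0.0054). Orange points passed at an adjusted p under 0.05. All 23 ciliated cell markers lie above 0 and 18 of 19 heat shock chaperones lie below it.

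Whether selenocystine changed the response to NNK was tested as the contrast on slides 5 to 8 minus that on slides 1 to 4. No gene passed in limma (0 of 18925), with 959 at an unadjusted p under 0.05 (5.07%) and 0 to 3 passing in other fits of the ratio. Of the 6 called genes with a steady reference, all 6 had the same sign of effect in both sets, where 51.9% of the steady genes did. The 6 also kept that sign on each single slide of slides 5 to 8, for which a share over all genes was not counted. The sets share no mice or arrays, but both have their NNK arrays from the same scan day. The differences in effect were -0.02 ± 0.14 for Upk3a, -0.15 ± 0.16 for Psrc1 and 0.07 ± 0.11 for Dnaja1, and -0.32 ± 0.10 and -0.26 ± 0.10 for Cdc25b and Tspan31. In NNK+SECY against SECY itself 0 of 18930 genes passed in limma, with 1361 at an unadjusted p under 0.05 (7.19%).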

How the data were processed

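Per the file headers, spots were read with the scanner maker's Feature Extraction software. The deposited array files hold spot and background intensity for both dyes, linear and not normalized, beside processed signals. They also hold the authors' log10 ratio of Cy5 to Cy3. The authors' deposited value table holds log2 ratios, which match the former after a change of base, to within 0.005, with a median of 0 on every array. Each array has 41534 spots that are not controls, for 41174 probes and 27702 gene names. Names came from a RefSeq listing of build GRCm38.p6 for 22080 probes by accession, 6275 by symbol and 4225 by synonym, and 8594 kept the file's name.

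Mean signals were corrected with normexp (offset 50) and loess within each array (limma 3.58.1 in R 4.3.3), with outlier spots left out. Signal per dye is after loess and Aquantile scaling. A gene is its brightest probe, tested if the scanner called its Cy5 well above background in all 4 Untreated or all 4 NNK mice. The limma model had the slide as a block and an NNK effect for each diet over all 16 arrays (6 residual degrees of freedom). Fold changes are log2 with the model's SE.

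Slides 1 to 4 pair Untreated and NNK mice of the same number. Deviations of same-numbered arrays correlated at 0.474, 0.181, 0.369 and -0.024 over genes, and the pairing comes from the slide barcode in the headers, not from the mice. No source used here says whether a slide was hybridised in more than 1 session.

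Members and the 33 gene lists were chosen with earlier results of these data known, so lists have counts and medians and no test. Genes named are the called ones with a steady reference, the 10 largest called ones without, up to 10 symbols each way with a steady reference, 1 sign on all 4 slides and no overlap of the groups, up to 4 per list by p, and a set named whatever their values. Not every gene taken is printed, and some items are not reported here. Hsph1, Hspa1a, Hspd1, Hspe1, Hspb1, Krt5, Krt17, Top2a and the genes at the limit on Cy3 lie outside this rule and were chosen after their values were seen. Alternatives covered the block, background, normalization, filter, probe rule, array weights, the limit on Cy3 and leaving out each slide. Replicates are separate mice.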

Additional observations from a re-analysis of the deposited data

Results flagged for a closer look

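In 142 groups of 4 arrays screened over the genes named, 8 held 1 array far from the other 3, where chance gives about 1 in 20. The count is near that share, so the arrays are listed as a description only. In Cdc25b and Pak6 the array apart was NNK 1, with log2 ratios of 0.27 and 0.69, below the other NNK arrays. In Fgf14 it was Untreated 2 at -0.13 and NNK 3 at 1.09. Ccng1 had Untreated 3 at -0.15, and Marco had NNK 4 at -0.58. The P450 genes Cyp2a4 and Cyp2a5 had Untreated 1 at -1.07 and -1.04, the array that was also lowest for Hspa1a.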

How the results depend on the processing

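Main counts were 40 genes called, 6 of them with a steady reference, 1945 called in Cy3 and 0 for the interaction. No replicate block gave 68, 9, 796 and 1, of which 31 and 3 were among the 40 and the 6. The replicate block by the labels' numbers gave 65 called and 2 for the interaction, the slide as a random block 92, 16 steady and 3 for the interaction, and the 8 arrays alone 101 and 17. Array weights gave 91, 14, 3478 in Cy3 and 1 for the interaction, median centring 24 and 3, no filter 26 and 3, the mean of a gene's probes 19 and 1. Processed signals and the authors' deposited value table each gave 3 and 0. Cy5 alone gave 639, 378 and, for interaction genes called, 120. A Cy3 limit of 1 gave 12 steady genes, and keeping outlier spots, chosen after the data were seen, gave 67 called. Leaving out a slide gave 0 to 40 called, 0 to 4 steady and 1049 to 1155 in Cy3. Without slide 2 or slide 3 the count was 0, without slide 4 it was 13 with 0 steady, and without slide 1 it was 40, of which 25 were among the 40. Fewer arrays enter these fits. Of 1278 single-gene values under 18 alternatives, 1146 kept their side of the threshold and sign, 98 lost and 32 gained a call. In Cy5 alone Cdkn1a was at -0.0882 and Hspe1 at 0.0079, turning their sign, and for both the cause was not tested. Medians of the p53, heat shock, ciliated, basal, T and NK, macrophage, type 1 and adipose lists kept their sign under all 18. The remaining limits are 4 mice per group, no dye swap and scan days that cannot be told apart from NNK.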

Other observations

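Further gene groups had no member past the threshold in limma. B and plasma cell markers were above 0 at 11 of 14 with a median of 0.064, and 11 of 14 on slides 5 to 8. All 9 mesothelial markers were above 0 with a median of 0.058, though 4 of 9 were on slide 4, and the median was below 0 in Cy5 alone. Genes of the glucocorticoid response and metallothioneins were below 0 at 11 of 15 with a median of -0.12, but the slides were split. Above 0 were 11 of 15 on slide 1 and 12 of 15 on slide 3, against 4 of 15 on slide 2 and 2 of 15 on slide 4. With 1 slide left out the median of this list ran from -0.21 to -0.01. Immediate early genes, induced within minutes of a stimulus, were below 0 at 13 of 21 (median -0.05), and 16 of 21 were above 0 on slides 5 to 8. Outputs of RAS-MAPK signalling were below 0 at 12 of 19 with a median of -0.02. Type I interferon genes were above 0 at 14 of 22 (median 0.017) and extracellular matrix genes at 13 of 29 (median -0.0027), where all genes had 53.2% and 0.0054.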
